A study of Mus musculus with 6 samples.

Results

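Chromatin accessibility at 8 genes of the ETS transcription factor family (Erg, Fli1, Ets1, Ets2, Elk3, Ehf, Elf3 and Elf5) was described in 3 sorted epidermal cell populations of the mouse. Accessibility was measured by ATAC-seq, in which a transposase inserts adapters into open DNA, and the data were 1 list of peaks per library. Peaks of all 6 lists that overlapped were joined into 75738 consensus regions, and a region belonged to an ETS gene where that gene was the nearest protein-coding span within 50 kb (mm10). This rule gave 84 regions at 7 of the 8 genes and none at Fli1. The genes had been picked with results of these data known, so counts of their regions are a description and carry no test.

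All mice carried a tamoxifen-inducible Cre driven by Tnc, which encodes the matrix protein tenascin-C, with a tdTomato reporter (TNC-CREER; tdTomato) on a C57BL/6 background. All were dosed with tamoxifen (100 µg per g of body weight) at the age of 51 and again at 52 days, and back skin was taken at 60 days. Touch dome cells, keratinocytes of the small sensory patches that hold Merkel cells, were gated for EPCAM, SCA1, α6-integrin and the reporter. Interfollicular epidermis (IFE) cells had the same 3 surface proteins and no reporter, and hair follicle (HF) cells had EPCAM and α6-integrin without SCA1 or reporter. The reporter marks cells in which Tnc was active at the time of tamoxifen and their progeny, so touch dome cells are defined here by Tnc and the gate. Each population had 2 libraries of 50000 cells, and the labels do not say whether the 2 came from separate animals.

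ETS factors bind DNA through a shared domain that reads a GGAA core, and differ in the partners and tissues through which they act. Ehf, Elf3 and Elf5 form the epithelium-specific branch and act in the differentiation of lining and glandular epithelia. Ets1 and Ets2 carry signals of the Ras and MAP kinase pathway, and Ets1 is prominent in lymphocytes and in basal and migrating epithelial cells. Erg and Fli1 are best known from endothelial and blood-forming cells, and Elk3 is a ternary complex factor that represses serum response genes until it is phosphorylated.

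The lists held 50153 and 59250 peaks for touch dome, 52219 and 51124 for IFE and 54844 and 57131 for HF. No read counts came with the lists. The depth is therefore unknown, and the lack of a peak says that none was called there. A smaller share of cells with an open site and weaker opening in every cell cannot be told apart. All 6 basal keratinocyte marker genes examined (Krt5, Krt14, Krt15, Trp63, Col17a1 and Itgb4) had regions, with 42 and 49 of their 60 regions open in touch dome, 48 and 49 in IFE and 46 and 48 in HF. Of the 4 genes behind the gate, Tnc had 17 regions, with peaks at 17 and 17 in touch dome, 11 and 11 in IFE and 13 and 12 in HF. Ly6a (SCA1) had 5, with peaks at 4 and 4, 5 and 5, and 2 and 2 in the same order. Epcam had 7, with peaks at 6 and 7, 7 and 6, and 7 and 7. Itga6 (α6-integrin) had 23, with peaks at 14 and 14, 20 and 15, and 9 and 9, although all 3 populations were gated for its protein.

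The 5 ETS genes with a start site in the RefSeq promoter table (GRCm38.p6, the assembly behind mm10) had 8 listed starts, and whether a peak lay there differed among them. Each listed window runs from 250 bases before the start to 50 after it. The 4 windows below are shown because they contrast the open and closed starts of these genes, with every match to the ETS core GGAA, on either strand, in capitals.
Elf3 (chr1:135258423-135258722, minus strand): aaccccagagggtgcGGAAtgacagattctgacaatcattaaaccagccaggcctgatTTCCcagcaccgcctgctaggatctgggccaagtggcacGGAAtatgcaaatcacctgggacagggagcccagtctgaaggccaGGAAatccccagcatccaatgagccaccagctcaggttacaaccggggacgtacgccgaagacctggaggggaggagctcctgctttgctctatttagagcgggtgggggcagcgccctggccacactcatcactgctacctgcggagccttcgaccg
Elf5, start 1 (chr2:103411848-103412147, plus strand): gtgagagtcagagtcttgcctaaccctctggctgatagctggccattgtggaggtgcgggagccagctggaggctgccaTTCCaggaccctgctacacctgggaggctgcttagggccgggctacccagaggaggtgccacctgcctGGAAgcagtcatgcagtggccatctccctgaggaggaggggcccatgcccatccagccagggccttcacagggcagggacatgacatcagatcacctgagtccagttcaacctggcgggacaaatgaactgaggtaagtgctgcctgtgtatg
Elf5, start 2 (chr2:103423818-103424117, plus strand): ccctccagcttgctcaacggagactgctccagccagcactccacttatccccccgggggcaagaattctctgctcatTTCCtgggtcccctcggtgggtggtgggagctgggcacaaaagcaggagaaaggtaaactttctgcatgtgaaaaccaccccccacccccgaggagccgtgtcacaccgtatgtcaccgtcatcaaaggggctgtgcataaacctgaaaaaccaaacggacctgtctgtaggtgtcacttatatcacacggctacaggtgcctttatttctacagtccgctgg
Erg, start 3 (chr16:95459299-95459598, minus strand): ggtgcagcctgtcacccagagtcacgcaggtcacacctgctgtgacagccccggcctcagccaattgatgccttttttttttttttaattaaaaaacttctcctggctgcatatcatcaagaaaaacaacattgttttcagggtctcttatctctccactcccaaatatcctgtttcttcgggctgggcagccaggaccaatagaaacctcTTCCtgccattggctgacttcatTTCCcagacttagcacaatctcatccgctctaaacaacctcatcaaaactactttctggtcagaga

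The Elf3 window had a peak in all 6 libraries, as had that of Ets2. The second Elf5 start had a peak in every library except HF replicate 1. The first Elf5 start had no peak in any library, and the nearest peak was 11.6 kb away in touch dome replicate 2 and 36.2 kb away in HF replicate 1. None of the 3 Erg starts had a peak in any library. For the third Erg start the nearest peak was 37.3 kb away in all touch dome and IFE libraries and 4.4 kb away in both HF libraries. The Elk3 window was touched by a peak of touch dome replicate 2 alone. In the other 5 libraries a peak ended 3 to 126 bp short of that window, inside the gene, so the start itself lay at the edge of an open region in every population.

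Base composition did not sort the open from the closed starts of these genes. Of 21263 promoter windows of protein-coding genes in the table, 51.1% had a peak in all 6 libraries and 42.9% in none, with a median GC content of 62.3% and 48.3%. The Ets2 window had 71.7% GC and 30 CpG, and Elf3 had 59.0% and 12. The closed Erg windows had 50.3%, 37.3% and 46.0% GC with 16, 2 and 4 CpG, so the first held more CpG than the open Elf3 window. The closed first Elf5 window had 60.7% GC with 3 CpG, a higher GC content than that of Elf3. The second Elf5 window had 55.3% GC and 10 CpG. Elk3 had 71.3% GC and 31 CpG.

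The letters of the ETS core did not set these windows apart. Read on both strands, GGAA occurred in all 8 windows and in 95.7% of all windows. The longer ETS site CCGGAAG, which contains the core, was in none of the 8 and in 11.6% of all. The tandem core GGAAGGAA, which holds the core more than once, was in none and in 3.61%, the AP-1 site TGANTCA in none and in 6.99%, and the RUNX site TGTGGTT in none and in 4.71%. The GATA site AGATAA was in 1 window, the third Erg start, and in 9.65% of all. The shares over all windows differed between open and closed starts. Of the 6 motifs, only CCGGAAG was more frequent with a peak in all 6 libraries (19.9%) than with a peak in none (2.61%). AGATAA was in 5.30% and 14.9% of these windows.

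As a group the regions of the ETS genes had peaks about as often as all consensus regions, with the largest gap in touch dome replicate 1. Touch dome libraries had a peak at 62 and 66 of the 84 regions (73.8% and 78.6%, against 64.6% and 77.5% of all regions). IFE libraries had a peak at 59 and 58 (70.2% and 69.0%, against 68.2% and 66.3%), and HF libraries at 59 and 65 (70.2% and 77.4%, against 71.6% and 74.3%). The means were 64.0 ± 2.83 for touch dome, 58.5 ± 0.707 for IFE and 62.0 ± 4.24 for HF (SD, n = 2 each). The ranges of touch dome and HF overlapped, and IFE and HF met at 59. Of the 84 regions, 41 (48.8%) had a peak in all 6 libraries, against 45.2% of all consensus regions. The libraries of some population disagreed at 22 regions (26.2%, against 34.6% of all). The span of the gene itself held 40 of the 84 (47.6%), against 69.5% of all regions placed at genes, and Ets2, Ehf, Elf3 and Elf5 had most of theirs outside.

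**Figure D1:**
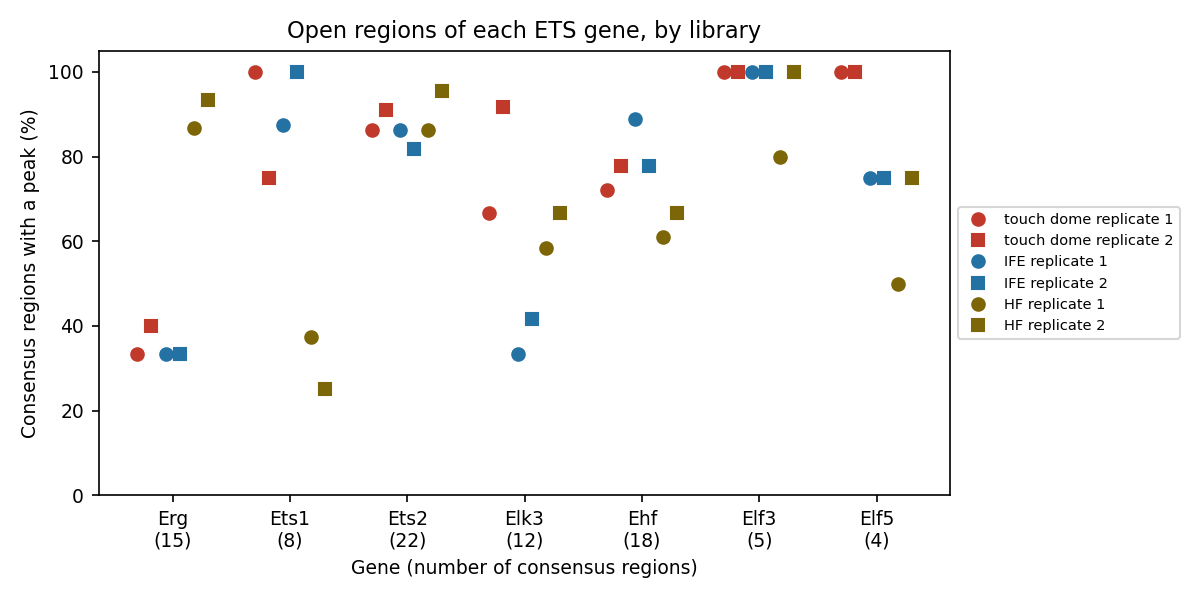
Share of the consensus regions of each ETS gene that had a peak (vertical axis, %), by gene (horizontal axis, number of regions in brackets) and library (colour for the population, circle for replicate 1, square for replicate 2). Erg stands high in HF (86.7% and 93.3%), Ets1 low in HF (37.5% and 25.0%), and Elk3 low in IFE (33.3% and 41.7%). Fli1 has no region and is not drawn.

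A region was counted as open in population A against B where both libraries of A and neither of B had a peak. In touch dome against IFE, 7 ETS regions (8.33%) were open in touch dome and 2 (2.38%) in IFE, where 5.41% and 1.80% of all regions were. In touch dome against HF, 11 (13.1%) were open in touch dome and 8 (9.52%) in HF, where 8.40% and 7.97% of all regions were. In IFE against HF, 8 (9.52%) were open in IFE and 13 (15.5%) in HF, where 10.2% and 14.7% of all regions were. Without touch dome replicate 1 the 7 touch dome regions against IFE became 11, and without either IFE library the 2 IFE regions became 4. The comparisons share libraries, and the sums hide genes that went in opposite directions, which are described next.

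**Figure D2:**
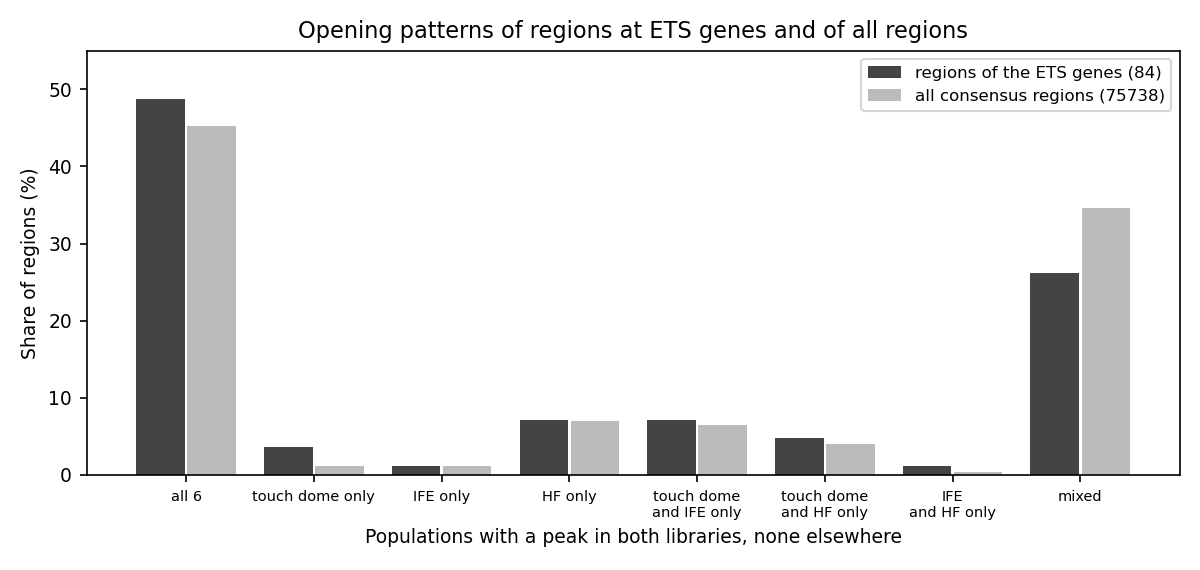
Share of regions (vertical axis, %) with each opening pattern (horizontal axis), for the 84 regions of the ETS genes (dark bars) and all 75738 consensus regions (light bars). A pattern names the populations with a peak in both libraries while all other libraries had none; "mixed" holds regions where the 2 libraries of some population differed. Regions open in touch dome only made up 3.57% of ETS regions and 1.13% of all, and HF only regions 7.14% and 6.93%.

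Erg was the most follicle-biased member. Its span, on chromosome 16 from 95359169 to 95586600, and the 50 kb around it held 15 regions. Peaks lay at 5 and 6 of them in touch dome, 5 and 5 in IFE, and 13 and 14 in HF, so the HF libraries stood above all others. Peak length summed over the 15 regions was 3661 and 4901 bp in touch dome, 3126 and 3440 bp in IFE, and 9037 and 9845 bp in HF.

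Of the 15 Erg regions, 6 were open in both HF libraries and in no other library, a pattern of 6.93% of all regions. All 6 lay inside the gene span, spread over 189.4 kb. The longest, at chr16:95550118-95551240, had peaks of 1054 and 1078 bp in HF and none in touch dome or IFE. The next by HF peak length were chr16:95361817-95362491 (559 and 659 bp in HF) and chr16:95376351-95377026 (523 and 676 bp). The region nearest a listed start, chr16:95463760-95464233, had 472 and 449 bp in HF, and the other 2, at chr16:95401898-95402305 and chr16:95408127-95408504, had 340 and 407 bp and 305 and 378 bp. Among 15553 genes with a region, 16 had more HF only regions than Erg and 12 others had as many. Such counts favour genes with many regions, and 634 other genes had at least the 15 of Erg.

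Another 3 Erg regions were open in both touch dome and both HF libraries and in neither IFE library, a pattern of 4.02% of all regions. At chr16:95392681-95393547 peak length was 460 and 605 bp in touch dome, none in IFE and 867 and 781 bp in HF. At chr16:95398803-95399686 it was 483 and 780 bp in touch dome, none in IFE and 690 and 824 bp in HF. The third, chr16:95632672-95633699, lay 46.1 kb past the end of the span with the higher coordinate, with 653 and 724 bp in touch dome, none in IFE and 1028 and 958 bp in HF. HF peaks were longer than both touch dome peaks at the first and the last of these, and overlapped them in length at the middle region.

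Both IFE libraries had a peak at 2 Erg regions closed in touch dome, of which 1 was open in IFE only. At chr16:95573231-95573728 both IFE libraries had a peak (455 and 498 bp) and the touch dome and HF libraries had none, a pattern of 1.22% of all regions. At chr16:95384626-95385559 IFE peaks of 319 and 351 bp stood beside HF peaks of 845 and 898 bp, with no peak in touch dome, a pattern of 0.322% of all regions. A region open everywhere, chr16:95421122-95422081, ran the other way, with 924 and 950 bp in touch dome, 803 and 782 bp in IFE and 442 and 593 bp in HF. In all, touch dome against HF gave 0 and 8 Erg regions, IFE against HF gave 1 and 9, and touch dome against IFE gave 3 and 2, a difference of 1 that was 0 without IFE replicate 1. Leaving out any 1 library left touch dome minus HF at -8 and IFE minus HF between -9 and -8, but with the widest 50% of peaks they were -1 and -2. The HF only regions at Erg had a median width of 574 bp, beside 623 bp for all HF only regions.

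Erg is an endothelial gene, and endothelial markers were examined beside it. Of 15 such genes 12 had regions, 69 in all, and Cdh5, Kdr and Robo4 had none in any library. Pecam1 had 13 regions, with 10 and 11 open in touch dome, 13 and 11 in IFE and 11 and 11 in HF. Tek had 2 and 3 of 8 open in touch dome, 2 and 5 in IFE and 6 and 5 in HF. Eng had 3 and 5 of 6, 3 and 3, and 6 and 6 in the same order. Vwf was lowest in HF, with 8 and 9 of 11, 9 and 10, and 6 and 7. Flt1 had 8 and 11 of 11, 10 and 10, and 7 and 8. Summed over the list, 42 and 52 regions were open in touch dome, 51 and 52 in IFE and 50 and 54 in HF. The list had 6 HF only regions (8.70%, against 6.93% of all). In touch dome against HF 4 were open in touch dome and 7 in HF (5.80% and 10.1%, against 8.40% and 7.97% of all), and in IFE against HF 7 in IFE and 9 in HF (10.1% and 13.0%, against 10.2% and 14.7%). These shares were near those of all regions. The 4 touch dome regions belonged to the clotting factor gene Vwf (2) and to the VEGF receptor gene Flt1 and Cldn5 (1 each). The 7 HF regions belonged to the angiopoietin receptor gene Tek and the tight junction gene Cldn5 (2 each) and to Eng, Sox17 and Egfl7 (1 each), so Cldn5 went both ways. The part of other cells in the Erg regions was not tested.

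Fli1, the closest relative of Erg, had no consensus region in any library. Its span, on chromosome 9 from 32422204 to 32543432, lies 92.8 kb below Ets1. The nearest region on the lower side was 107.2 kb away, was open in all 6 libraries and belonged to Kcnj5. On the higher side it was 48.3 kb away, at chr9:32591726-32592343, with peaks in touch dome replicate 1 (618 bp) and IFE replicate 2 (385 bp) alone. That region lay nearer to Ets1, at 43.9 kb. Having no region was common, at 6347 of 21900 protein-coding genes (29.0%).

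**Figure D3:**
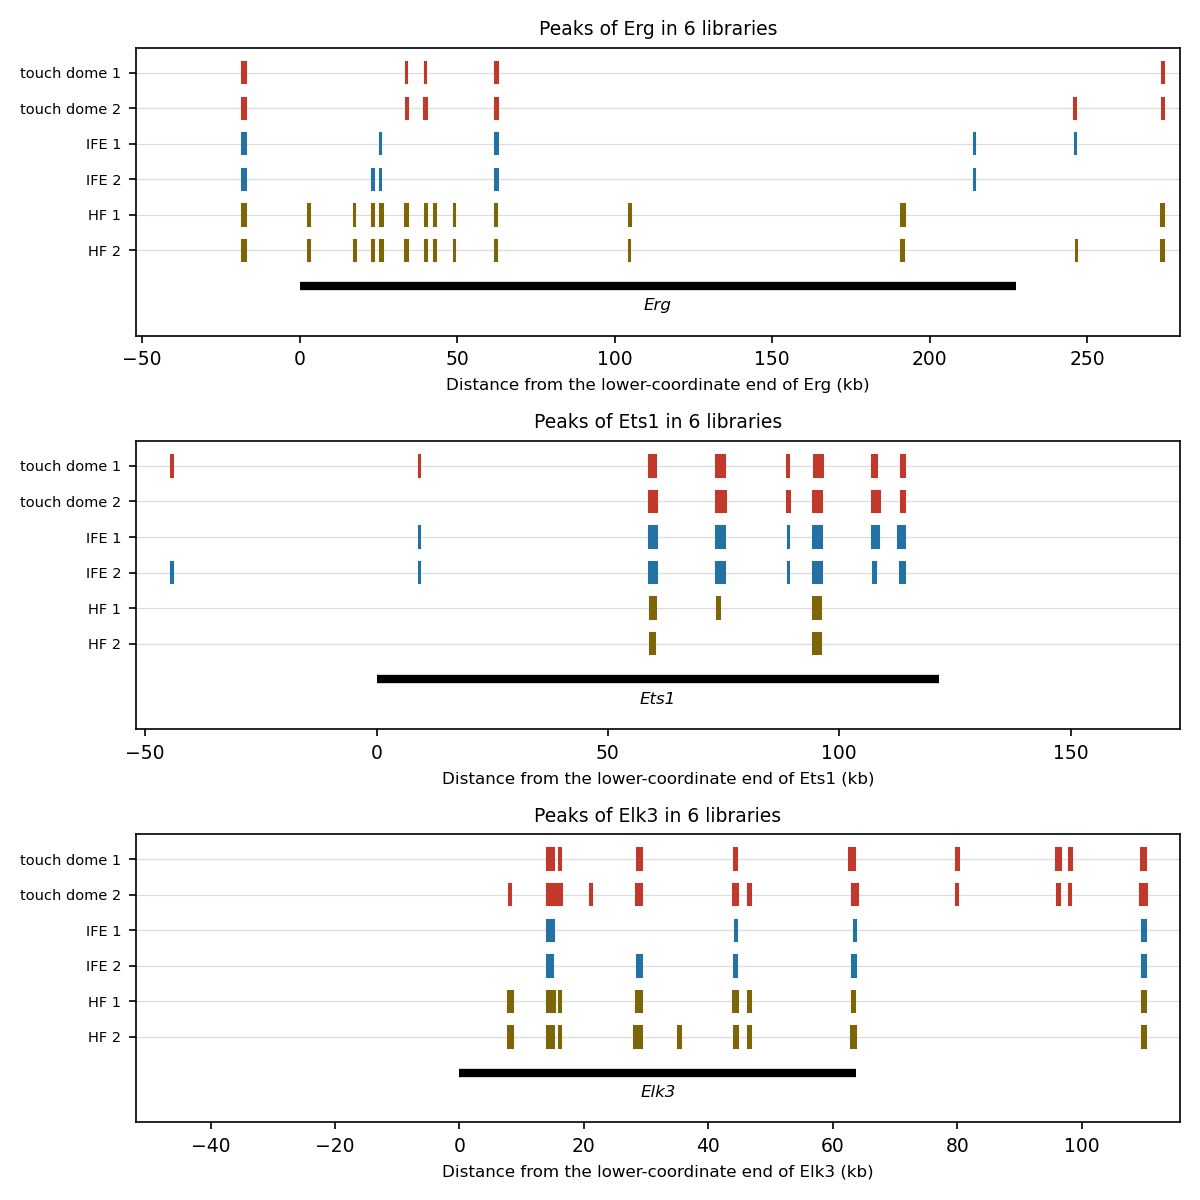
Peaks (coloured blocks, to scale) in each of the 6 libraries at Erg, Ets1 and Elk3, by distance from the lower-coordinate end of the gene span (horizontal axis, kb); black bars mark the spans. Erg shows 6 blocks present in HF alone, Ets1 has 3 blocks on the right that HF lacks, and Elk3 shows 3 blocks past its right end in touch dome alone.

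Ets1 was the reverse of Erg. It had 8 regions, with peaks at 8 and 6 in touch dome, 7 and 8 in IFE, and 3 and 2 in HF, so all touch dome and IFE libraries stood above both HF libraries. Summed peak length was 8463 and 8798 bp in touch dome, 9444 and 8339 bp in IFE and 3508 and 2986 bp in HF.

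Of these, 3 regions within 25.4 kb at the end of the span with the higher coordinate were open in both touch dome and both IFE libraries and closed in HF, as were 6.52% of all regions. Of the genes with a region, 103 had more regions of this pattern than Ets1 and 170 others had as many. At chr9:32743308-32745146 peaks measured 959 and 1839 bp in touch dome, 1589 and 769 bp in IFE, and HF had none. At chr9:32748984-32750423 they measured 822 and 883 bp in touch dome and 1431 and 1030 bp in IFE, and at chr9:32725016-32725491 they measured 344 and 476 bp in touch dome and 398 and 334 bp in IFE. A longer region, chr9:32709585-32711659, missed the pattern because of a single short HF peak. It had 1974 and 2031 bp in touch dome, 2010 and 1972 bp in IFE, 530 bp in HF replicate 1 and no peak in HF replicate 2.

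Of the other Ets1 regions, 2 were open in both HF libraries. The region at chr9:32695093-32696808 was open in all libraries, at 1446 and 1661 bp in touch dome, 1648 and 1553 bp in IFE and 1313 and 1242 bp in HF. That at chr9:32730602-32732657 was too, at 1953 and 1908 bp in touch dome, 1992 and 1984 bp in IFE and 1665 and 1744 bp in HF. Both HF peaks were shorter than every touch dome and IFE peak at both regions. Touch dome against HF gave 3 and 0 of the 8 Ets1 regions, where 8.40% and 7.97% of all regions were called. IFE against HF gave 4 and 0, where 10.2% and 14.7% of all were. The 4 included chr9:32645341-32645723, with 347 bp in touch dome replicate 1, 376 and 312 bp in IFE and no peak elsewhere. Touch dome against IFE gave none in either direction. Without touch dome replicate 2 the count of touch dome minus HF became 5, and with the widest 50% of peaks it was 2.

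Ets1 is also a lymphocyte gene, and immune markers were examined beside it. Of 15 genes 8 had regions, 20 in all, and Cd3g, Cd4, Cd8a, Cd207, Csf1r, Itgax and Tyrobp had none in any library. Summed over the list, 11 and 16 regions were open in touch dome, 14 and 12 in IFE and 8 and 11 in HF. In touch dome against HF the list stood at 3 and 0 (15.0% and 0%, against 8.40% and 7.97% of all regions), from Ptprc, Cd3e and Cd69 with 1 region each. It stood at 5 and 2 in IFE against HF of its 20 regions (where 10.2% and 14.7% of all regions were open) and at 2 and 2 in touch dome against IFE (5.41% and 1.80% of all). The part of immune cells in the Ets1 regions was not tested.

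Ets2, 115.8 kb from Erg on chromosome 16 (95702407 to 95721049), was open alike in the 3 populations. It had 22 regions, the most of the 8 genes, and 17 of them lay outside its short span. Touch dome libraries had a peak at 19 and 20, IFE libraries at 19 and 18 and HF libraries at 19 and 21, and these ranges overlapped. Of the 22, 18 were open in all 6 libraries. At its listed start, the region chr16:95701806-95705041 had 1960 and 2465 bp of peaks in touch dome, 2667 and 2356 bp in IFE and 2034 and 1671 bp in HF.

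HF peaks were often shorter than those of IFE at Ets2. Peaks of a library in a region were summed here. At 11 of the 18 Ets2 regions open everywhere both IFE lengths exceeded both HF lengths, and at 1 the reverse held. Over all 34250 such regions the shares were 37.9% and 23.1%. Both touch dome peaks were set against both HF peaks in the same way, with longer touch dome peaks at 6 of the 18 (33.3%) and shorter ones at 3 (16.7%), near the 28.7% and 20.9% of all such regions. A region with shorter HF peaks was chr16:95684604-95685710, with 1012 and 735 bp in touch dome, 918 and 765 bp in IFE and 428 and 320 bp in HF. Only 1 region, chr16:95666038-95666583, was open in touch dome against HF, with 496 and 346 bp in touch dome, 546 bp in IFE replicate 1, and none in the other 3 libraries. In IFE against HF 1 region was open in HF, chr16:95716211-95716616, at 325 and 394 bp, with 396 bp in touch dome replicate 2. Neither difference held in every setting. The count of touch dome minus HF was 0 without touch dome replicate 2 and -1 without HF replicate 1. The count of IFE minus HF was 0 without IFE replicate 2 and -3 without HF replicate 1.

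Elk3 had more regions open in touch dome than in IFE, and held all 3 regions of the 8 genes that were open in touch dome only. Its span lies on chromosome 10 from 93247415 to 93311159, and it had 12 regions. Peaks lay at 8 and 11 in touch dome, 4 and 5 in IFE and 7 and 8 in HF. Touch dome and HF met at 8, and both IFE libraries were below all others. Summed peak length was 6488 and 8758 bp in touch dome, 2474 and 3645 bp in IFE and 6051 and 6495 bp in HF, where the lower touch dome library lay within the HF range.

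In 3 of the 12, both touch dome libraries had a peak and the other 4 libraries had none, as at 1.13% of all regions. They lay 16.0, 32.2 and 34.1 kb beyond the end with the listed start, upstream of the gene. Peak length in touch dome was 487 and 303 bp at chr10:93327152-93327638, 750 and 532 bp at chr10:93343333-93344082, and 527 and 444 bp at chr10:93345286-93345812. Among 15553 genes with a region, 5 had more touch dome only regions and 6 others had as many, while 992 other genes had at least 12 regions in all. When every list was trimmed to the same number of its longest peaks, Elk3 had a touch dome minus IFE count of 1 and a touch dome minus HF count of 1, in place of 3 and 3. Without touch dome replicate 2 the touch dome minus HF count was 1, and without touch dome replicate 1 the touch dome minus IFE count was 6. With the widest 50% of peaks the counts were 2 and 1. Where peaks had to cover at least 50% of a region, they were 5 and 3. All 3 regions lay outside a window of 10 kb, where both counts were 0.

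Counted as whole merged regions, Elk3 had regions inside the gene called between IFE and HF and none called between touch dome and IFE. Of 8 regions there, 4 and 7 had a peak in touch dome, 3 and 4 in IFE and 6 and 7 in HF. Touch dome replicate 1 and IFE replicate 2 met at 4. At chr10:93255175-93256052 there were 467 bp in touch dome replicate 2, none in IFE and 859 and 878 bp in HF. At chr10:93293702-93294316 there were 502 bp in touch dome replicate 2, none in IFE and 502 and 496 bp in HF. Touch dome replicate 1 had no peak at either, so these were called in IFE against HF and not in touch dome against IFE. The IFE against HF counts were 0 and 2 of the 12 Elk3 regions (0% and 16.7%, against 10.2% and 14.7% of all).

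Peaks of a library were summed within each of the 4 Elk3 regions open in all 6 libraries. Both touch dome sums exceeded both IFE sums each time, against 13.2% of such regions over all genes. At chr10:93309951-93311467, next to the start, the lengths were 1067 and 986 bp in touch dome, 362 and 598 bp in IFE and 503 and 798 bp in HF. At chr10:93261454-93263949 the sums were 1456 and 2463 bp in touch dome, 1105 and 1028 bp in IFE and 1692 and 1510 bp in HF. There touch dome replicate 1 had separate peaks of 1068 and 388 bp, the first shorter than the 1105 bp peak of IFE replicate 1. The part under the second peak was also covered in touch dome replicate 2, by a single peak that spanned both parts. Both HF libraries had a peak in that part as well, and neither IFE library had any. The median ratio of length over the 4 regions was 1.64 for touch dome over IFE and 1.35 for touch dome over HF, beside 0.98 and 1.01 over all genes.

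Fibroblast and mural cell markers were examined beside Elk3. Of 10 genes 7 had regions, 29 in all, and Pdgfrb, Lum and Rgs5 had none in any library. Summed over the list, 20 and 21 regions were open in touch dome, 16 and 14 in IFE and 22 and 22 in HF, so both IFE libraries were lowest, as at Elk3. In touch dome against IFE 5 regions were open in touch dome and 1 in IFE (17.2% and 3.45%, against 5.41% and 1.80% of all). In IFE against HF 3 were open in IFE and 8 in HF (10.3% and 27.6%, against 10.2% and 14.7%). In touch dome against HF the counts were 3 and 3 (10.3% each, against 8.40% and 7.97%). The collagen gene Col1a2 had 2 regions open in touch dome and HF only, and the single region of Dcn, which encodes decorin, was open in touch dome only. Pdgfra was highest in HF, with 3 and 4 of 7 regions open in touch dome, 3 and 2 in IFE and 7 and 6 in HF. Acta2 went the other way, with 3 and 3 of 4 open in touch dome, 4 and 4 in IFE and 2 and 2 in HF. Cspg4 was nearly level, with 8 and 7 of 10 in touch dome, 7 and 7 in IFE and 6 and 7 in HF. The part of such cells in the Elk3 regions was not tested.

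**Figure D4:**
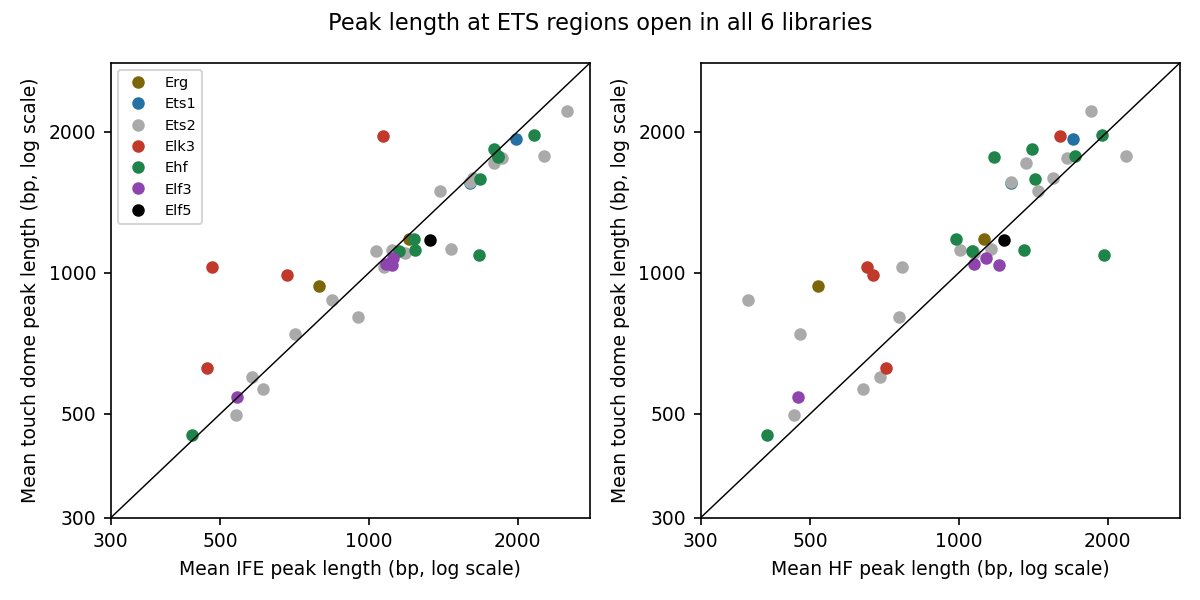
Mean peak length in touch dome (vertical axes, bp, log scale) against IFE (left) and HF (right, horizontal axes, bp, log scale) at the 41 ETS regions open in all 6 libraries, 1 point per region, coloured by gene; the line marks equal length and peaks of a library in a region were summed. All 4 Elk3 points lie above the line against IFE, while the 41 regions together had a median ratio of 0.97.

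The epithelium-specific branch was open in all 6 libraries at 15 of its 27 regions, and most of its differences were regions closed in HF. Ehf, Elf3 and Elf5 had 27 regions, of which 22 and 23 were open in touch dome, 24 and 22 in IFE and 17 and 20 in HF, so both HF libraries were below the other 4. The 15 regions open in every library made up 55.6% (against 45.2% of all regions). Touch dome against HF gave 4 and 0 regions (14.8% and 0%, against 8.40% and 7.97%). IFE against HF gave 3 and 1 (11.1% and 3.70%, against 10.2% and 14.7%), and touch dome against IFE 1 and 0 (3.70% and 0%, against 5.41% and 1.80%). The share open in IFE against HF was near that of all regions.

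Ehf, on chromosome 2 from 103263431 to 103303275, had 18 regions, with peaks at 13 and 14 in touch dome, 16 and 14 in IFE and 11 and 12 in HF. Of these, 10 were open in all libraries, including the longest inside the gene, chr2:103302256-103304689, with 1697 and 2230 bp in touch dome, 2367 and 1942 bp in IFE and 1878 and 2021 bp in HF. A neighbouring pair beyond the end with the higher coordinate was open in touch dome and IFE and closed in HF, and 274 genes had more regions of this pattern. At chr2:103312271-103313275, 9.0 kb from the span, peaks measured 689 and 857 bp in touch dome and 961 and 966 bp in IFE. At chr2:103318061-103318596, 14.8 kb from the span, they measured 345 and 440 bp in touch dome and 536 and 358 bp in IFE. Another region, chr2:103230231-103230751, had 380 and 483 bp in touch dome, 509 bp in IFE replicate 1 and none in IFE replicate 2 or HF. The touch dome minus HF count of 3 was -1 with the widest 50% of peaks. The IFE minus HF count of 2 was 5 without IFE replicate 2 and 1 without HF replicate 1.

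Elf5, 108.8 kb from Ehf (chromosome 2, 103412098 to 103450989), had 4 regions. Peaks lay at 4 and 4 in touch dome, 3 and 3 in IFE and 2 and 3 in HF. The region at its second start, chr2:103423728-103424818, had 818 and 1083 bp in touch dome, 987 and 1025 bp in IFE, no peak in HF replicate 1 and 907 bp in HF replicate 2. Between Ehf and Elf5 the neighbouring regions switched partner populations. At chr2:103375100-103376088 there were 357 and 989 bp in touch dome, none in IFE and 804 and 457 bp in HF. At the next region, chr2:103379742-103380235, there were 424 and 488 bp in touch dome, 378 and 405 bp in IFE and none in HF. The touch dome minus HF count of 1 was 2 without HF replicate 2, and 0 with a window of 10 kb or with the widest 50% of peaks. The touch dome minus IFE count of 1 was 0 in the same 2 settings and with a peak cover of 50%.

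Elf3, on chromosome 1 from 135253574 to 135258472, had 5 regions and varied least. Peaks lay at 5 and 5 in touch dome, 5 and 5 in IFE and 4 and 5 in HF. At its start, chr1:135258223-135259347, peaks measured 1000 and 1090 bp in touch dome, 1125 and 1042 bp in IFE and 1095 and 1048 bp in HF, and the ranges overlapped. The single missing peak was that of HF replicate 1 at chr1:135217559-135218373, 35.2 kb from the gene, where touch dome had 516 and 708 bp, IFE 746 and 518 bp and HF replicate 2 351 bp.

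**Figure D5:**
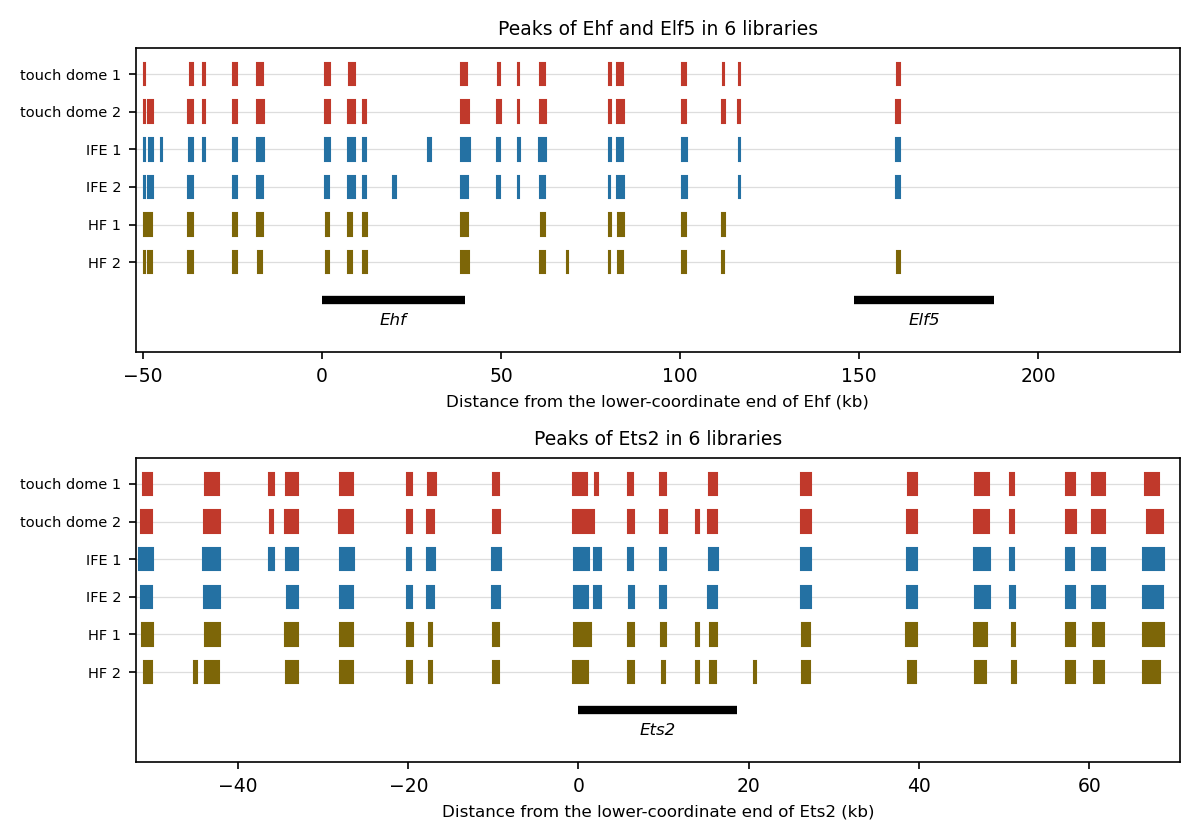
Peaks (coloured blocks, to scale) in each of the 6 libraries at Ehf with Elf5 and at Ets2, by distance from the lower-coordinate end of Ehf or Ets2 (horizontal axes, kb); black bars mark the gene spans. Most blocks run through all 6 rows, 10 of the 18 Ehf and 18 of the 22 Ets2 regions being open everywhere, and 2 blocks right of Ehf are missing in HF.

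The 50 kb limit of the rule passed between regions of different patterns at Erg. The outermost Erg region inside it, at 46.1 kb, was open in touch dome and HF only, and the first outside, at 51.1 kb (chr16:95637705-95638209), was open in IFE only, with 505 and 368 bp. At Ets2 the regions at 50.0 and 54.0 kb, and at Ehf those at 47.3 and 53.4 kb, were all open in every library. At Elk3 the region at 45.6 kb was open everywhere, and the first outside, at 50.6 kb, had a peak in HF replicate 1 alone.

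The other 19 ETS family genes had 94 regions, with 65 and 70 open in touch dome, 73 and 68 in IFE and 78 and 75 in HF. All 6 libraries were open at 49 of the 94 (52.1%). In touch dome against HF, 3 (3.19%) were open in touch dome and 8 (8.51%) in HF, beside 8.40% and 7.97% of all regions. In IFE against HF the counts were 6 (6.38%) and 10 (10.6%), beside 10.2% and 14.7% of all. In touch dome against IFE they were 3 (3.19%) and 2 (2.13%), beside 5.41% and 1.80%. A region open in any of these comparisons was found at 8 of the 19 genes (42.1%), against 45.9% of all 15553 genes with a region.

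Etv6, a transcriptional repressor needed for blood formation, had the largest number of them and also the most regions. Of its 22 regions 8 and 14 were open in touch dome, 12 and 14 in IFE and 16 and 18 in HF. It had 1 and 4 regions in touch dome against HF, 2 and 3 in IFE against HF and 0 and 1 in touch dome against IFE. Etv4 and Etv5 act downstream of FGF signals. In touch dome against HF, Etv4 had 0 and 1 regions and Etv5 had 1 and 1. In IFE against HF, Etv4 had 0 and 2 and Etv5 had 1 and 3. Each had 1 and 0 in touch dome against IFE. Etv3 had 0 and 1 in touch dome against HF and in IFE against HF. Gabpa, a regulator of mitochondrial and housekeeping genes, had 0 and 1 in touch dome against HF and 1 and 1 in IFE against HF. Elf1 had 1 and 0 in both comparisons with HF, Elf2 had 0 and 1 in touch dome against IFE and 1 and 0 in IFE against HF, and Elf4 had 1 and 0 in touch dome against IFE.

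The genes whose pattern lay nearest to each ETS gene were sought among 4123 other genes with at least 5 regions, by the mean absolute difference over the 6 libraries in the share of regions with a peak. Nearest to Erg were Acaca and Exoc3l2, both at 3.33 percentage points, and Pthlh at 3.89, each with 6 regions. Nearest to Ets1 were Ccdc187 (6.25), Wnt3 (7.50) and Adcy3 (7.74), and to Elk3 Snx7 (4.17), Laptm4b (5.36) and Kcnk2 (6.02). Nearest to Ehf were Fnbp1l (2.04), F830045P16Rik (2.55) and Uvrag (2.91), and to Ets2 Tmigd1 (2.60), 4921504E06Rik (2.84) and Tnfaip8 (3.03). Lipn, Prn and Slc31a2, at 5 regions each, matched Elf3 with a difference of 0. Elf5 had too few regions for this measure.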

How the data were processed

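The authors deposited 1 peak list per library, giving peak positions and names and no score. Tools named by the submitters' processing notes were MACS2 2.2.7.1, SAMtools 1.9, Bowtie2 2.4.5 and Trim Galore 0.6.7, with build mm10. How reads were filtered or shifted and which peak threshold was used is not given in the sources used here. Depth is unknown, so a library with more reads could have gained weak peaks.

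Peaks overlapping by at least 1 bp were merged, and each region went to the nearest of 21900 RefSeq protein-coding gene spans (GRCm38.p6) within 50 kb, which placed 62802 regions (82.9%). Of overlapping spans, the span with an end nearest to the midpoint was taken. None of the 84 ETS regions needed this choice, and regions that it placed at another gene are not among the 84. In 76 ETS regions at least 2 libraries had a peak, and in each all open libraries shared at least 1 bp. In 4 ETS regions some library had 2 separate peaks, and the lengths given are sums over the peaks of a library in a region. Coordinates count from 1. Promoter sequences were from RefSeq, and 5 of the 8 genes matched. Region building was tested on simulated peaks. Python 3.11.15 with pandas 2.3.3 was used.

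Groups came from the sample titles. With 2 libraries a group no test was made, and the members and lists were chosen with earlier results of these data known. All 8 members were named, with other ETS genes that had a population-specific region, up to 4 marker genes a list, and the 3 genes of nearest pattern. Marker genes named beyond those were chosen after their values were seen. Settings tried were the peak cover, merging distance, gene window, widest peaks and leaving out each library.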

Additional observations from a re-analysis of the deposited data

How the results depend on the processing

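Counts here are of ETS regions open in the first-named against the second-named population. With a gene window of 10 kb, 2 regions were open in touch dome against IFE, in place of 7, and 4 in touch dome against HF, in place of 11, and the means per library were 29 for touch dome, 29 for IFE and 34 for HF. With the widest 50% of peaks, the counts were 3 for touch dome against IFE, 6 and 4 for touch dome against HF, and 4 and 3 for IFE against HF, with means of 35, 34.5 and 33.5 for touch dome, IFE and HF. The 2 regions open in IFE against touch dome became 1 with a peak cover of 50% and 1 when every list was trimmed to the same number of its longest peaks. All other counts over the ETS genes stayed within 1.5 times of those reported when regions were merged within 100 bp or placed within 100 kb, and under the settings above. Leaving out 1 library relaxes the call and gave 7 to 11 regions open in touch dome and 2 to 4 in IFE for touch dome against IFE. It gave 11 to 13 and 8 to 12 for touch dome against HF, and 8 to 12 and 13 to 17 for IFE against HF.

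Of 168 values for the difference of a single gene, 3 changed sign and 17 were 0. The 17 belonged to Elf5 (touch dome minus IFE and touch dome minus HF), Ets2 (touch dome minus HF and IFE minus HF), Elk3 (both touch dome differences, with the 10 kb window) and Erg (touch dome minus IFE). Ets2 had a touch dome minus HF count of -1 without HF replicate 1 (1 reported) and an IFE minus HF count of 1 with the widest 50% of peaks (-1 reported). Ehf had a touch dome minus HF count of -1 with the widest 50% of peaks (3 reported). The cause was not tested. Placing regions by the nearest start site was not run, because the table used here lists starts for 5 of the 8 genes. No paired analysis was possible because the counts come from no fitted test and the labels do not say whether equal replicate numbers pair the libraries.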
